A study of Mus musculus with 9 samples.

Results

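The Wnt genes of 9 mouse RNA-seq libraries are described here: the secreted Wnt ligands, their Frizzled receptors and the proteins that raise or lower the signal at the cell surface. The set was chosen by name. It held the genes of the count table with a numbered Wnt, Frizzled (Fzd), Dickkopf (Dkk), R-spondin (Rspo) or secreted Frizzled-related (Sfrp) symbol. Axin2, Kremen1, Lef1, Lgr4, Lgr5, Lgr6, Nkd1, Notum, Rnf43, Tcf7, Wif1 and Znrf3 were added. Frzb, a secreted antagonist without such a symbol, was counted with the other pathway genes and is in no Sfrp or decoy value here. The set came to 53 of the 56481 gene symbols, of which 51 had a count in 1 or more libraries. There were 19 ligands, 10 Frizzled receptors, 4 R-spondins, 3 Lgr receptors, 2 receptor ubiquitin ligases, 5 genes of the Dickkopf and Kremen kind, 5 decoy inhibitors, 3 feedback inhibitors and 2 nuclear factors.

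Libraries came from 3 groups of 3. Neural crest cells of mouse embryos at E13.5 (pNCC), and primary cells that the labels call corneal endothelial (pCEC), were grown in DMEM with 10% FBS, nonessential amino acids and L-glutamine. Induced corneal endothelial cells (iCEC) were made from neural crest cells on gelatin in DMEM/F12 with 5% KSR, nonessential amino acids, 2-mercaptoethanol and 5 µM SB431542, which blocks the TGF-β type I receptor. That medium was changed every 2 days, clusters were seen by day 4 and colonies were examined on day 12. Serum, base medium and the inhibitor therefore differed together between iCEC and both other groups, and their parts cannot be told apart. No strain and no age of the pCEC donors are given in the labels used here, and nothing in them says that replicates came from separate cultures or animals, so a p-value here measures the spread among libraries, which may be technical. The molecule is given as polyA RNA for all libraries except pCEC 2 and pCEC 3, which are labelled total RNA.

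Wnt proteins bind a Frizzled receptor together with Lrp5 or Lrp6, which stops the breakdown of β-catenin and lets it act with Tcf and Lef factors in the nucleus. Some ligands, Wnt5a among them, are better known for β-catenin-independent signalling that acts on cell movement and polarity. Rnf43 and Znrf3 are membrane ubiquitin ligases that remove Frizzled from the surface, and R-spondins, bound to Lgr receptors, take those ligases away and so keep Frizzled in place. Of the Dickkopf proteins, Dkk1, Dkk2 and Dkk4 act on Lrp5 and Lrp6, while Sfrp and Wif1 proteins capture the ligands. In the eye, Wnt signalling shapes the neural crest-derived tissues of the front chamber and the epithelium of the cornea.

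The libraries held 27389292 (pCEC 3) to 47967113 (iCEC 1) counts. Levels are given as CPM, the count scaled by the library total, always in the order of replicates 1, 2 and 3 of a group, and levels of different genes are set side by side only per kilobase of exon. Marker lists did not all follow the labels. Krt12, a keratin of the corneal surface epithelium, was at 8974, 10428 and 11145 CPM in the libraries labelled pCEC. Col8a2, a collagen of the corneal endothelium, was at 77.2, 153 and 37.6 CPM there, at 18.4, 4.93 and 9.54 CPM in pNCC and at 0, 0.109 and 0.119 CPM in iCEC. Summed over 10 markers, surface epithelium genes reached 88.6 to 137 CPM in pNCC, 14492 to 20088 CPM in iCEC and 33272 to 45935 CPM in pCEC. Summed over 12 markers, corneal endothelium genes reached 966 to 1114 CPM in pNCC, 2379 to 2696 CPM in iCEC and 1504 to 1854 CPM in pCEC. Of these 12, 6 were higher and 3 lower in iCEC than in pNCC, where 31.3% of all genes passed. In pCEC 7 were higher and 2 lower than in pNCC, where 62.5% passed. In iCEC against pCEC, 2 were higher and 3 lower, where 20.4% passed. Col8a2 is 1 of the 12 and does not stand for the list. The 8 keratocyte and fibroblast markers summed to 25414 to 35286 CPM in pNCC, to 22.2, 29.7 and 153 CPM in iCEC and to 1035, 9675 and 5601 CPM in pCEC. The 10 neural crest markers summed to 395 to 664, 393 to 846 and 481 to 572 CPM in pNCC, iCEC and pCEC. That sum hides opposite changes. Against pNCC, 2 of the 10 were higher and 5 lower in iCEC, where 31.3% of all genes passed. In pCEC 2 were higher and 6 lower, where 62.5% of all genes passed. Foxd3 and Kera were at 0 in all iCEC libraries and Krt12 was at 0 in all pNCC libraries. Vessel, leukocyte and skeletal muscle lists stayed at or under 27.1, 129 and 66.1 CPM in every library.

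In these bulk libraries, fewer cells of a type and less RNA per cell cannot be told apart. The epithelial and the fibroblast lists moved with many of the Wnt genes described here, and their part in those results was not tested.

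Of the 53 Wnt genes, 40 passed the filter on low counts in iCEC against pNCC, and 23 of them passed an adjusted p of 0.05, with 11 higher and 12 lower in iCEC. In that comparison 31.3% of all 16293 genes tested passed, 16.1% higher and 15.1% lower. In pCEC against pNCC, 39 Wnt genes were tested and 33 passed, with 17 higher and 16 lower in pCEC, against 62.5% of all 16608 genes, 30.3% higher and 32.2% lower. In iCEC against pCEC, 34 were tested and 16 passed, with 5 higher and 11 lower in iCEC, against 20.4% of all 16278 genes, 10.5% higher and 9.92% lower. Libraries of the groups did not overlap for 28, 34 and 22 of the tested Wnt genes in the 3 comparisons, against 51.0%, 70.7% and 43.9% of all genes tested. The median size of the log2 difference was 3.38, 2.71 and 2.00 for the Wnt genes and 0.72, 0.95 and 0.66 for all genes tested. Some Wnt genes passed the filter through 1 group and were near 0 counts in the other, such as Rspo1 and Sfrp2 in iCEC against pNCC. Their log2 differences depend on the prior count. No background matched for level was made, so the medians do not show that Wnt genes changed more than other genes of like level. The signed medians of the Wnt genes were 0.23, 0.15 and -0.65, since rises and falls of different genes were mixed. The first 2 comparisons share the pNCC libraries, which can by itself make their differences alike. Genes that moved the same way in both are listed as description only, not as a likeness of iCEC and pCEC. Calls of iCEC against pCEC changed with the libraries used: 7 to 10 Wnt genes passed when any 1 pCEC library was left out. Calls over all genes fell from 3327 to between 1131 and 1353 in the same fits, so the loss was not particular to the Wnt genes. Without iCEC 1, iCEC 2 or iCEC 3, the Wnt genes passing were 20, 14 and 22. In iCEC against pNCC, 15 passed without pNCC 1 and 15 without pNCC 2.

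**Figure D1:**
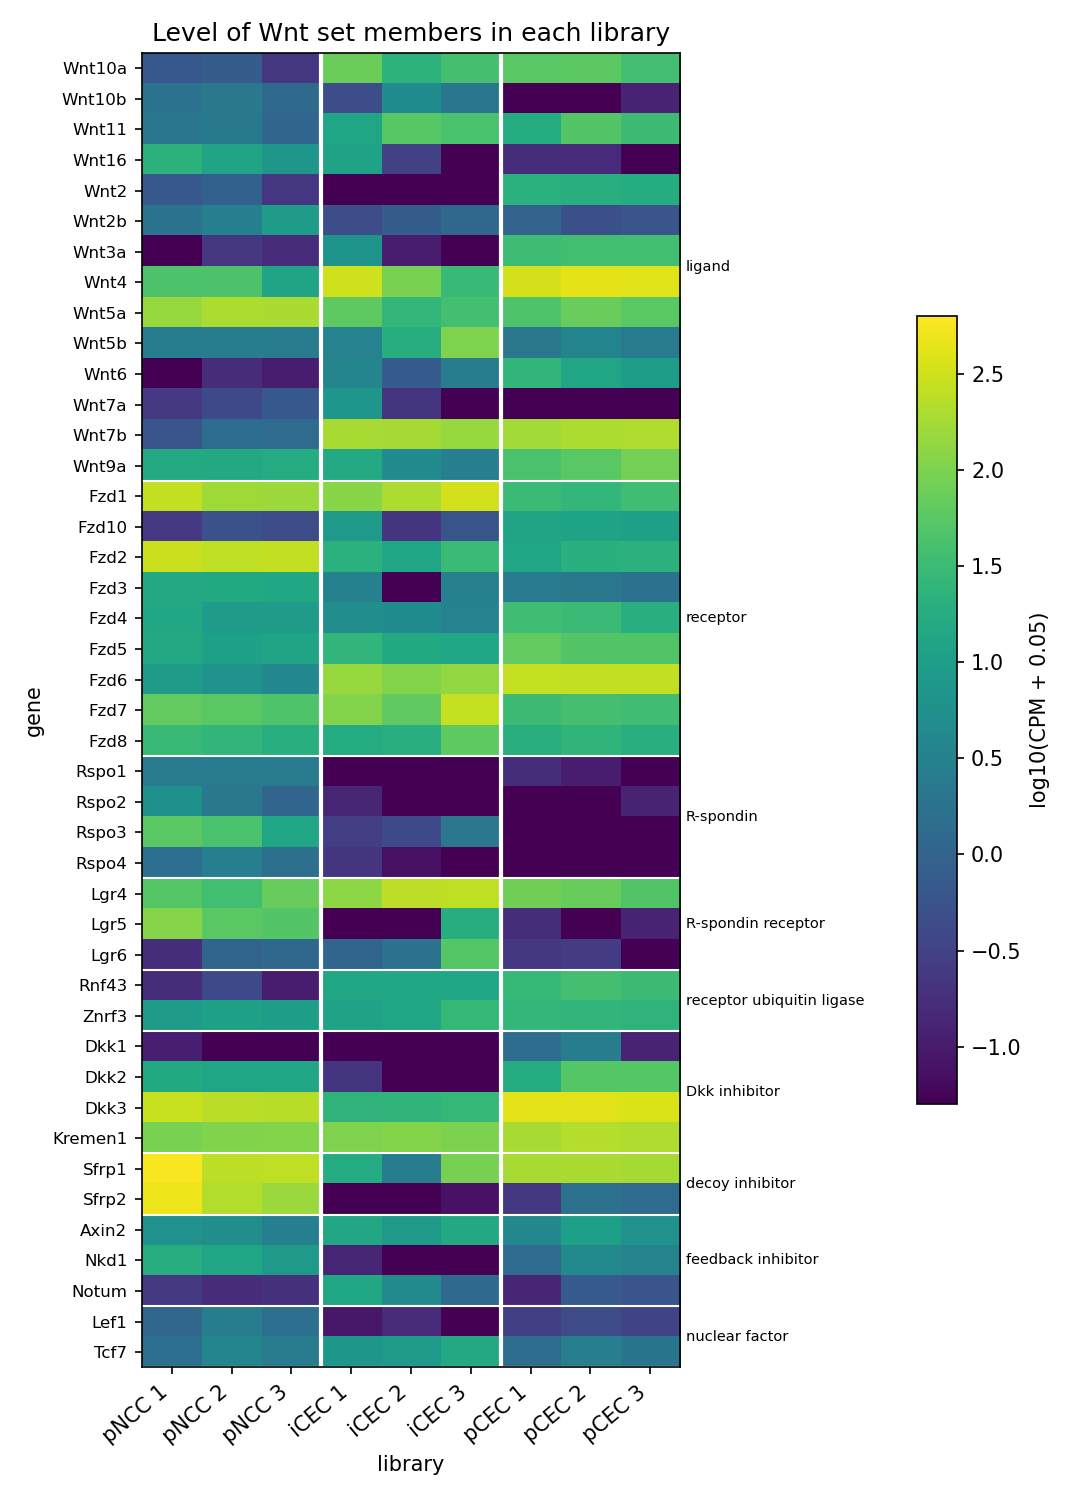
Levels of the Wnt genes with a mean of at least 1 CPM in 1 or more groups, as log10(CPM + 0.05), with 1 row per gene, ordered by role, and 1 column per library. Rspo1 to Rspo4 and Sfrp2 are brighter in the pNCC columns than in the others, and Wnt7b, Wnt10a and Rnf43 are brighter in the iCEC and pCEC columns than in pNCC.

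**Figure D2:**
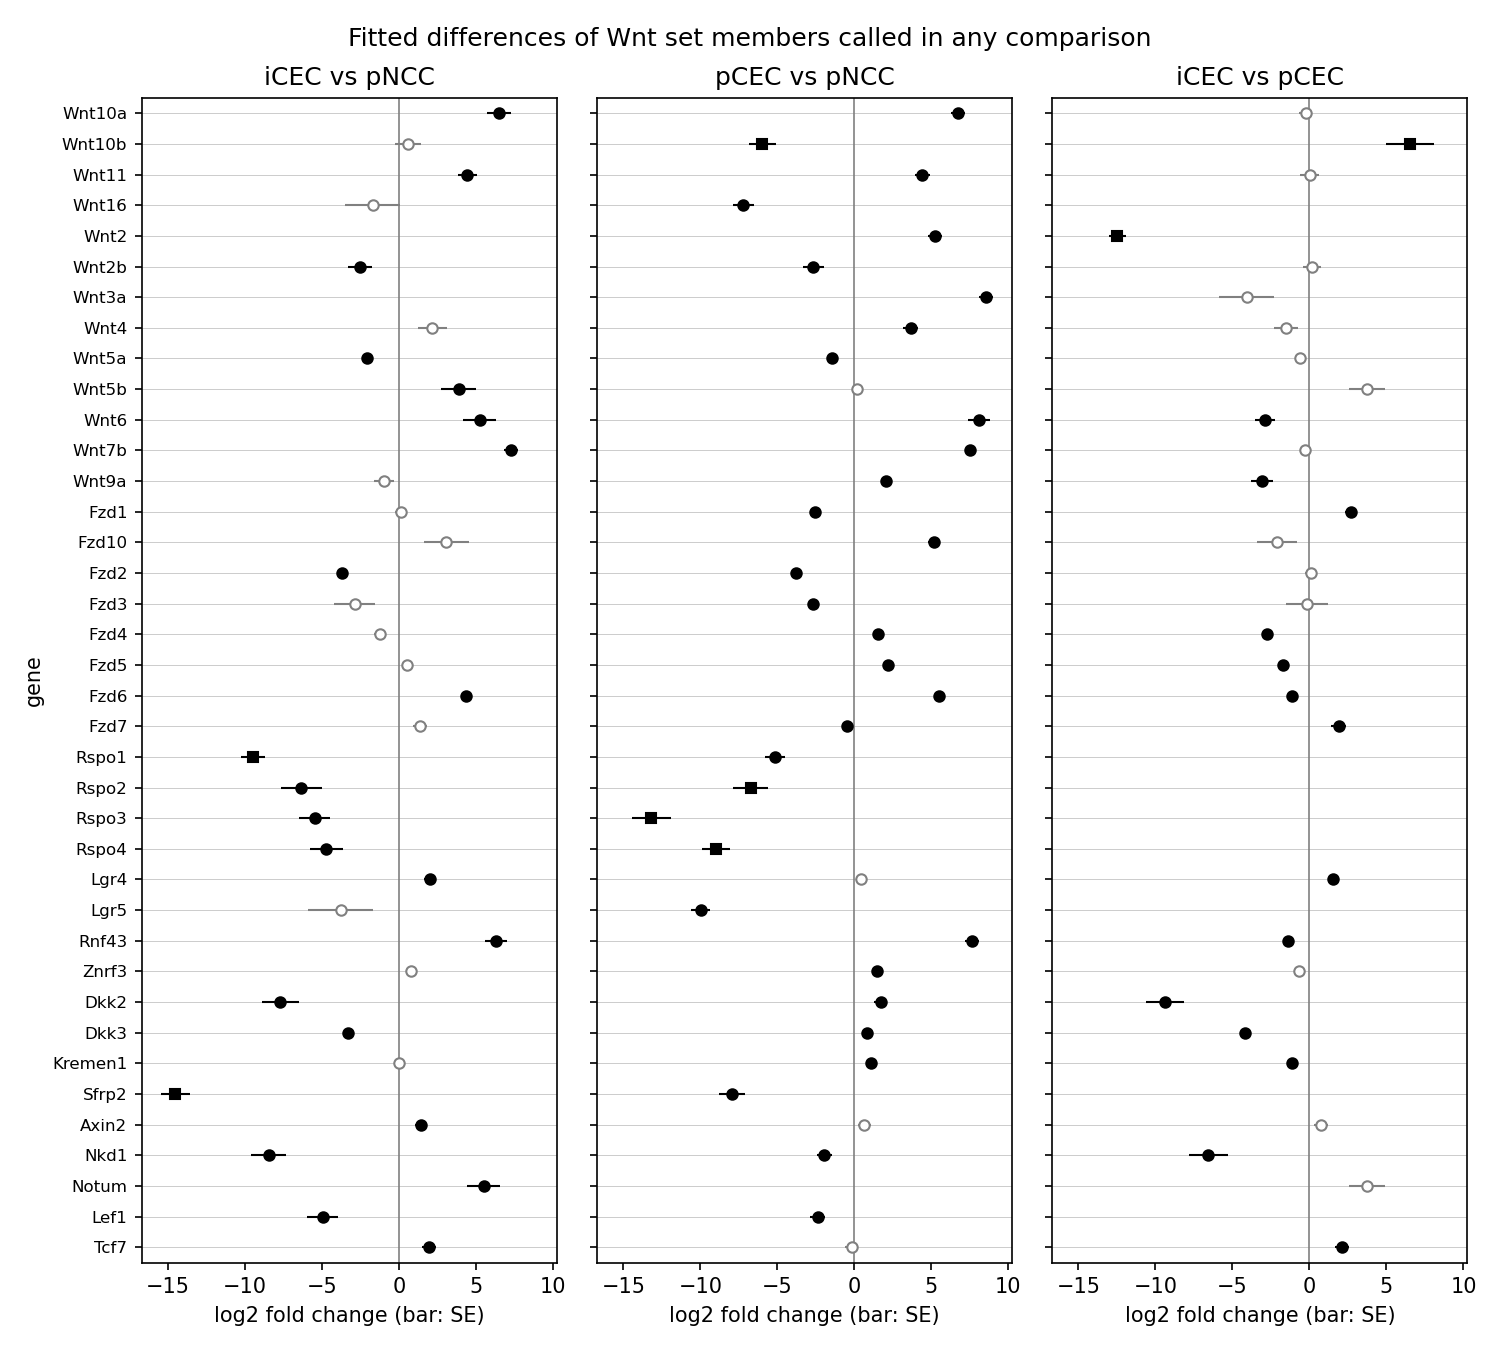
Log2 fold change ± SE, on the x axis, in the 3 comparisons for each of the 38 Wnt genes called in 1 or more of them, with filled points for an adjusted p under 0.05, open points for the others, and squares where a group held 3 counts or fewer, whose position depends on the prior count and is no bound. Dkk2 and Dkk3 lie below 0 in iCEC against pNCC and above 0 in pCEC against pNCC.

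Upstream sequences were available from RefSeq (GRCm38.p6) for 35 of the 53 genes, in 43 windows of 250 bases before an annotated start. They were searched on both strands for the Tcf/Lef words CTTTGAT and CTTTGAA and for TATAAA. A Tcf/Lef word stood in 3 of the 43 windows (Dkk1, Wnt11 and Wnt5b), and in 7.48% of all 32851 windows of that length. TATAAA stood in 7 of the 43 and in 12.4% of all windows. The windows of 4 genes on which the results below turn are shown, 1 of a ligand and 1 of a ubiquitin ligase high in iCEC and pCEC, and 2 of inhibitors that were low in iCEC. All lie on the plus strand, are written 5′ to 3′ and end at the base before the start, with the words found in capitals.
Wnt11 chr7:98834862-98835111: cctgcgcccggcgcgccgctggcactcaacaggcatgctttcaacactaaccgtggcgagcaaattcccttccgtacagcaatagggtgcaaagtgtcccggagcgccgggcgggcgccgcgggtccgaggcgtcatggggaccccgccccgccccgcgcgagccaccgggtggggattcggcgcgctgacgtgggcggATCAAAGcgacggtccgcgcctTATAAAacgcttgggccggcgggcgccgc
Rnf43 chr11:87662837-87663086: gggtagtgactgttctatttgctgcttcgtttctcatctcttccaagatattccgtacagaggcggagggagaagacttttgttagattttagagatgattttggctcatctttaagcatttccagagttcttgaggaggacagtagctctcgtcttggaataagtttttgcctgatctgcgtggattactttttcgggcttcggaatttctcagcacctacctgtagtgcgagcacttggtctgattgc
Dkk2 chr3:132085042-132085291: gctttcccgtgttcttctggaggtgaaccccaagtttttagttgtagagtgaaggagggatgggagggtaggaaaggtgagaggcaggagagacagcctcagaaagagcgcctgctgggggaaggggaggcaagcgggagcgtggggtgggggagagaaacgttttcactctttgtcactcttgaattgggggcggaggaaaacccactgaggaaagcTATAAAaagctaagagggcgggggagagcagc
Sfrp2 chr3:83766071-83766320: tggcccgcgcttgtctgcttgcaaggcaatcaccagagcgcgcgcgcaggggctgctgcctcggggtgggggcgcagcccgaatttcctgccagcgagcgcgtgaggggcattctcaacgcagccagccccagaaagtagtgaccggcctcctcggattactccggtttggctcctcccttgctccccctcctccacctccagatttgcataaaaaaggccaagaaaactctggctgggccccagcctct

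In the Wnt11 window, which is the first of 2 for that gene, the word ATCAAAG, the reverse complement of CTTTGAT, began 51 bases and TATAAA 29 bases before the start. The Dkk2 window held TATAAA 32 bases before the start and no Tcf/Lef word. Neither word was found in the Sfrp2 window or in the first of the 2 Rnf43 windows. The windows held 37, 8, 7 and 16 CpG dinucleotides for Wnt11, Rnf43, Dkk2 and Sfrp2, against a median of 6 over all windows. A match is a description of the letters in these windows only.

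Of the 19 ligands, 12 were tested in iCEC against pNCC, and 5 were higher and 2 lower in iCEC, where 31.3% of all genes passed. In pCEC against pNCC, 13 were tested, with 8 higher and 4 lower in pCEC, where 62.5% of all genes passed. Wnt7b, Wnt10a, Wnt11 and Wnt6 were higher than pNCC in both iCEC and pCEC, and Wnt5a and Wnt2b were lower in both.

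Wnt7b (chr15:85535437-85582473, minus strand, mm10), an epithelial ligand of the β-catenin branch in lung and skin, was at 0.560, 1.47 and 1.31 CPM in pNCC, at 182, 175 and 146 CPM in iCEC and at 167, 197 and 204 CPM in pCEC. Every pNCC library was under 2 CPM and no other library was below 146 CPM, so pNCC lay apart from both groups. It was 152-fold higher in iCEC (log2 fold change 7.25 ± 0.477, adjusted p = 0.000486) and 185-fold higher in pCEC (log2 fold change 7.53 ± 0.372, adjusted p = 6.83e-06). Between iCEC and pCEC the libraries overlapped and the difference did not pass (log2 fold change -0.30 ± 0.220, adjusted p = 0.385).

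Wnt10a (chr1:74791516-74804179, plus strand), a ligand needed for teeth, hair and skin, was at 0.622, 0.762 and 0.171 CPM in pNCC, at 76.7, 22.6 and 39.0 CPM in iCEC and at 55.9, 57.8 and 37.9 CPM in pCEC. All pNCC libraries were under 1 CPM, and the iCEC and pCEC libraries overlapped between 22.6 and 76.7 CPM. The rise was 89.4-fold in iCEC (log2 fold change 6.48 ± 0.766, adjusted p = 0.00257) and 107-fold in pCEC (log2 fold change 6.74 ± 0.431, adjusted p = 2.02e-05). Without iCEC 1, the highest iCEC library, the log2 fold change against pNCC was 5.84. Wnt6, whose gene lies 6193 bases from Wnt10a on the same strand of chromosome 1, was at 0, 0.117 and 0.0571 CPM in pNCC, at 3.63, 0.736 and 2.68 CPM in iCEC and at 25.3, 13.0 and 9.64 CPM in pCEC. Its iCEC libraries lay above all pNCC libraries and below all pCEC libraries. Wnt6 rose in iCEC (log2 fold change 5.22 ± 1.08, adjusted p = 0.0147), with an adjusted p of up to 0.0786 without pNCC 2 or pNCC 3 and a log2 fold change of 6.10 without pNCC 2. It rose further in pCEC (log2 fold change 8.10 ± 0.690, adjusted p = 6.40e-05), where leaving out pNCC 2 gave 8.97 and the polyA pCEC library alone gave 8.69. The difference between iCEC and pCEC passed as well (log2 fold change -2.87 ± 0.650, adjusted p = 0.0260), but was lost without any 1 pCEC library, with an adjusted p of up to 0.0949, and came to -3.46 with the polyA pCEC library alone (adjusted p = 0.247).

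Wnt11 (chr7:98835112-98855195, plus strand), a ligand of the β-catenin-independent branch that acts in heart and kidney formation, was at 1.96, 2.23 and 1.06 CPM in pNCC, at 13.3, 55.1 and 42.5 CPM in iCEC and at 17.1, 50.1 and 32.8 CPM in pCEC. Every iCEC and pCEC library was above 13 CPM and every pNCC library under 3 CPM. Its rise was 21.5-fold in iCEC (log2 fold change 4.43 ± 0.646, adjusted p = 0.00487) and 21.1-fold in pCEC (log2 fold change 4.40 ± 0.487, adjusted p = 0.000244). Within both iCEC and pCEC, replicate 1 was the lowest library, and pCEC 1 is the pCEC library labelled polyA RNA. With pCEC 1 alone the pCEC log2 fold change was 3.33 (adjusted p = 0.00207).

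Wnt5a (chr14:28504750-28527448, plus strand), the main ligand of β-catenin-independent signalling, was at 148, 198 and 189 CPM in pNCC, at 61.7, 25.8 and 38.2 CPM in iCEC and at 46.1, 72.8 and 55.9 CPM in pCEC. The lowest pNCC library was above the highest of the other 6 libraries. Wnt5a fell by 2.09 on the log2 scale in iCEC (adjusted p = 0.00738) and by 1.48 in pCEC (adjusted p = 0.000727). Wnt2b, a ligand of the eye margin, had at most 8.71 CPM in any library, in pNCC 3, and was at 1.80, 2.87 and 8.71 CPM in pNCC. It was lower in iCEC (log2 fold change -2.56 ± 0.760, adjusted p = 0.0466) and in pCEC (log2 fold change -2.68 ± 0.689, adjusted p = 0.0117). Without pNCC 3 these became -1.60 and -1.71, the first call was lost without any 1 library except iCEC 3 (adjusted p up to 0.160), and the second was lost with the polyA pCEC library alone (adjusted p = 0.171).

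A further group of ligands was high in pCEC. Wnt4 (chr4:137277489-137299726, plus strand), a ligand of kidney and reproductive tract development, was at 45.8, 45.9 and 12.3 CPM in pNCC, at 318, 92.7 and 29.5 CPM in iCEC and at 343, 436 and 402 CPM in pCEC. All pCEC libraries were above all others, while iCEC ran from a level within the pNCC range in iCEC 3 to near the pCEC level in iCEC 1. Wnt4 rose 12.6-fold in pCEC (log2 fold change 3.66 ± 0.489, adjusted p = 0.000605), and its difference between iCEC and pNCC did not pass (log2 fold change 2.15 ± 0.955, adjusted p = 0.140). Nor did its difference between iCEC and pCEC (log2 fold change -1.52 ± 0.804, adjusted p = 0.232). Wnt3a, a canonical ligand of the β-catenin branch, was at 0, 0.176 and 0.114 CPM in pNCC, at 6.55, 0.0545 and 0 CPM in iCEC and at 33.0, 35.5 and 36.7 CPM in pCEC. A level above 1 CPM outside pCEC was seen in iCEC 1 only. In pCEC it was 375-fold higher than in pNCC (log2 fold change 8.55 ± 0.479, adjusted p = 1.01e-05), with a log2 fold change of 9.21 without pNCC 2, and the 3 pNCC libraries held few counts. Between iCEC and pCEC the Wnt3a difference did not pass (log2 fold change -4.08 ± 1.80, adjusted p = 0.162).

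Wnt9a, a ligand of joint and limb development, was at 16.2, 15.7 and 16.7 CPM in pNCC, at 16.0, 4.80 and 2.92 CPM in iCEC and at 42.7, 57.0 and 86.9 CPM in pCEC. Its pCEC libraries lay above all others, iCEC 1 was level with pNCC, and iCEC 2 and iCEC 3 were lower. Wnt9a was 4.24-fold higher in pCEC than in pNCC (log2 fold change 2.08 ± 0.285, adjusted p = 0.000647) and lower in iCEC than in pCEC (log2 fold change -3.09 ± 0.728, adjusted p = 0.0303). The second of these calls was lost without iCEC 2 or any 1 pCEC library, with an adjusted p of up to 0.0968, and its log2 fold change was -4.13 without iCEC 1. With the polyA pCEC library alone the 2 log2 fold changes were 1.43 (adjusted p = 0.00130) and -2.43 (adjusted p = 0.393). Wnt2, a ligand of lung and vessel development, was at 0.622, 0.880 and 0.171 CPM in pNCC, at 0, 0 and 0 CPM in iCEC and at 21.0, 19.6 and 17.0 CPM in pCEC. It was high in pCEC only, at 0 counts in all iCEC libraries, and 37.7-fold higher in pCEC than in pNCC (log2 fold change 5.24 ± 0.469, adjusted p = 7.83e-05). At 3 counts in each iCEC library as the limit of detection, Wnt2 was at least 246-fold lower in iCEC than in pCEC (adjusted p = 0.00162).

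Wnt5b and Wnt16 were uneven within iCEC. Wnt5b, close in sequence to Wnt5a, was at 2.64, 2.70 and 2.40 CPM in pNCC, at 3.21, 17.6 and 101 CPM in iCEC and at 2.03, 3.44 and 2.37 CPM in pCEC. Each iCEC library was above each pNCC library, but iCEC 3 was 31.4-fold above iCEC 1. Its rise in iCEC (log2 fold change 3.85 ± 1.13, adjusted p = 0.0451) was lost without iCEC 2, iCEC 3 or any 1 pNCC library, with an adjusted p of up to 0.147, and without iCEC 3 the log2 fold change was 2.11. Wnt16, a ligand known from bone and blood stem cells, was at 21.4, 12.3 and 7.42 CPM in pNCC, at 11.7, 0.272 and 0 CPM in iCEC and at 0.120, 0.111 and 0 CPM in pCEC. In iCEC 1 it lay within the pNCC range, and the other 5 iCEC and pCEC libraries were below 0.3 CPM. It was 147-fold lower in pCEC than in pNCC (log2 fold change -7.20 ± 0.697, adjusted p = 0.000116), and the iCEC difference did not pass (adjusted p = 0.509). Wnt10b reached at most 4.90 CPM and was listed with 2 counts over the pCEC libraries. The pNCC to pCEC ratio of summed counts was 83.2-fold (95% counting interval 22.7 to 692), with adjusted p = 0.000878. The iCEC to pCEC ratio was 109.8-fold (95% counting interval 30.1 to 911), with adjusted p = 0.0302, a call lost without iCEC 2 or any 1 pCEC library (adjusted p up to 0.120).

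Relative levels within the ligand family were compared per kilobase of exon. The summed ligand level was 42.7, 48.0 and 38.1 CPM per kb in pNCC, 171, 93.8 and 109 in iCEC and 195, 235 and 220 in pCEC, so every pNCC library was the lowest and every pCEC library the highest. Wnt5a made up 53.5 ± 9.59% (mean ± SD, n = 3) of that sum in pNCC, 4.21 ± 0.603% in iCEC and 3.41 ± 0.490% in pCEC. Wnt4 made up 18.7 ± 9.62%, 24.8 ± 19.0% and 43.2 ± 1.18%, and the shares of the iCEC libraries were 44.4, 23.6 and 6.46%. Wnt7b was at 0.531 ± 0.232%, 29.1 ± 8.29% and 17.9 ± 0.949%, and Wnt10a at 0.472 ± 0.252%, 14.2 ± 4.24% and 9.51 ± 2.34%. Wnt5a was thus the leading ligand of pNCC by this scale and Wnt4 that of pCEC in each library. In iCEC no ligand led in all libraries, since Wnt4 led in iCEC 1, Wnt7b in iCEC 2 and Wnt5b, at 0.709, 7.08 and 34.9%, in iCEC 3. Without division by length, a scale chosen after seeing the data, Wnt5a took 69.6%, 8.23% and 6.71% of the ligand CPM in pNCC, iCEC and pCEC.

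**Figure D3:**
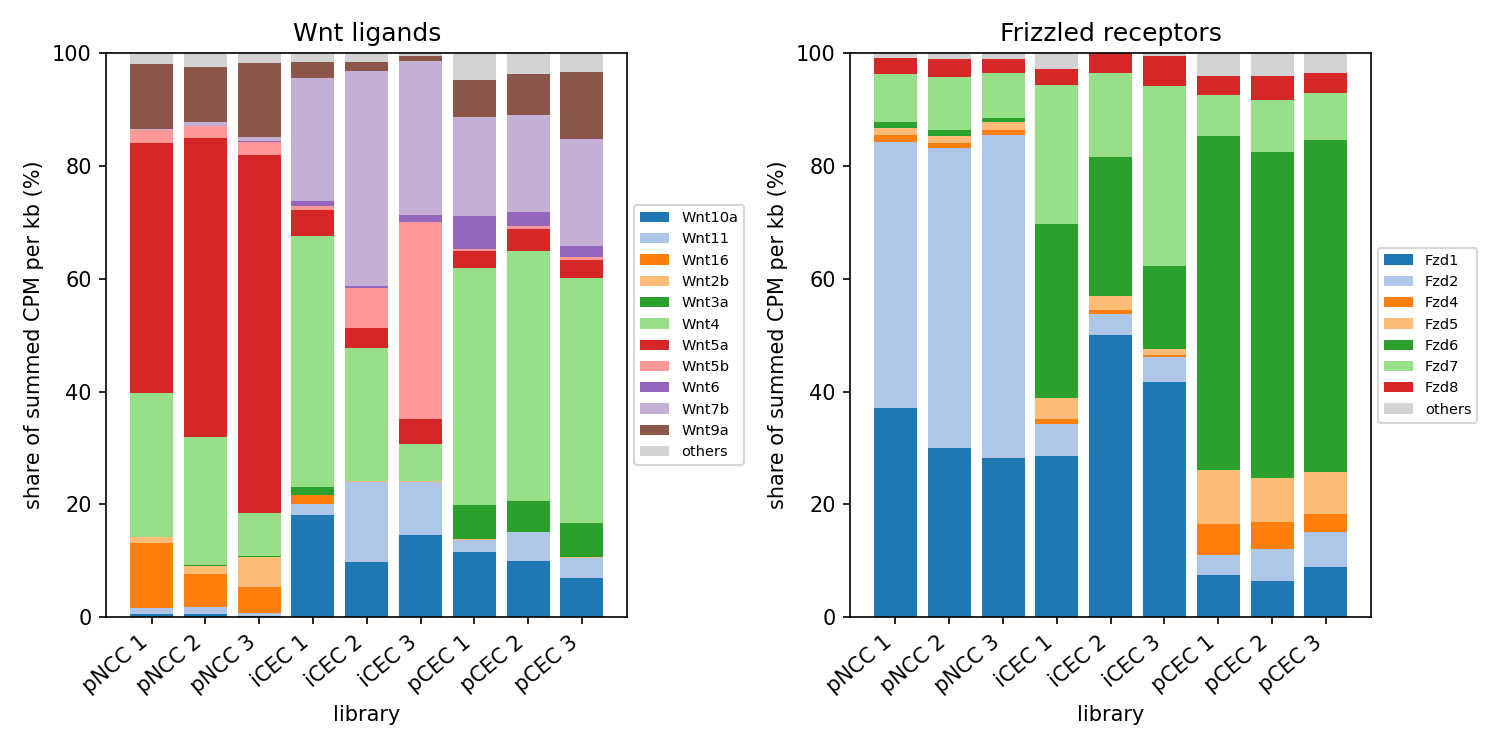
Stacked bars give, for each library, the percent of the summed CPM per kb within the Wnt ligands and within the Frizzled receptors that each gene takes. Wnt5a and Fzd2 are the largest parts of the pNCC bars, Wnt4 and Fzd6 lead in pCEC, and the 3 iCEC bars differ among themselves.

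Of the 9 Frizzled receptors tested, 4 were higher and 4 lower in pCEC than in pNCC, where 62.5% of all genes passed. In iCEC against pNCC 1 was higher and 1 lower, a share below the 31.3% of all genes. The summed receptor level overlapped, at 170, 132 and 128 CPM per kb in pNCC, 97.6, 93.2 and 191 in iCEC and 97.8, 95.3 and 93.2 in pCEC.

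Fzd2 (chr11:102604396-102608058, plus strand), a receptor for Wnt5a among other ligands, was at 293, 257 and 269 CPM in pNCC, at 20.6, 12.9 and 31.2 CPM in iCEC and at 12.9, 19.7 and 21.4 CPM in pCEC. The pNCC libraries were apart from the 6 others, and iCEC and pCEC overlapped. Fzd2 was 13.0-fold lower in iCEC (log2 fold change -3.70 ± 0.283, adjusted p = 0.000724) and 13.8-fold lower in pCEC (log2 fold change -3.79 ± 0.239, adjusted p = 1.50e-05), or -4.38 on the log2 scale with the polyA pCEC library alone. Fzd6 (chr15:39006034-39038188, plus strand), which takes part in planar polarity and hair patterning of the skin, was at 9.11, 6.33 and 4.08 CPM in pNCC, at 146, 111 and 137 CPM in iCEC and at 279, 266 and 264 CPM in pCEC. Its levels were ordered pNCC, iCEC, pCEC with no overlap. Fzd6 was 20.3-fold higher in iCEC (log2 fold change 4.34 ± 0.332, adjusted p = 0.000726) and 45.6-fold higher in pCEC (log2 fold change 5.51 ± 0.295, adjusted p = 8.22e-06) than in pNCC. It was lower in iCEC than in pCEC (log2 fold change -1.16 ± 0.174, adjusted p = 0.00769), which was lost with the polyA pCEC library alone (adjusted p = 0.285).

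Fzd1, a receptor of the β-catenin branch, was at 264, 166 and 152 CPM in pNCC, at 117, 195 and 335 CPM in iCEC and at 30.9, 26.0 and 34.6 CPM in pCEC. The pCEC libraries were below all others, and iCEC overlapped pNCC. Fzd1 was lower in pCEC than in pNCC (log2 fold change -2.53 ± 0.241, adjusted p = 0.000103) and higher in iCEC than in pCEC (log2 fold change 2.67 ± 0.377, adjusted p = 0.00664). Fzd7, its close relative, was at 64.6, 56.9 and 46.6 CPM in pNCC, at 109, 63.0 and 276 CPM in iCEC and at 32.4, 39.5 and 35.4 CPM in pCEC. The highest value was in iCEC 3 and all pCEC libraries were below all pNCC and iCEC libraries. Fzd7 was lower in pCEC than in pNCC (log2 fold change -0.51 ± 0.148, adjusted p = 0.0188), a call lost without pNCC 1, pCEC 1 or pCEC 3 (adjusted p up to 0.0689) and in a single fit of all 9 libraries (adjusted p = 0.355). It was higher in iCEC than in pCEC (log2 fold change 1.89 ± 0.492, adjusted p = 0.0412), which was lost without iCEC 1 or any 1 pCEC library (adjusted p up to 0.136) and came to 1.22 without iCEC 3.

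Fzd4 and Fzd5, of which Fzd4 is needed for retinal vessels and Fzd5 for eye development, were higher in pCEC. Fzd4 was at 14.2, 8.91 and 8.94 CPM in pNCC, at 5.30, 4.85 and 3.21 CPM in iCEC and at 35.1, 30.8 and 19.6 CPM in pCEC. It lay highest in pCEC and lowest in iCEC, with no overlap. Fzd4 was higher in pCEC than in pNCC (log2 fold change 1.54 ± 0.261, adjusted p = 0.00167) and lower in iCEC than in pCEC (log2 fold change -2.77 ± 0.343, adjusted p = 0.00506), while iCEC against pNCC missed the threshold (adjusted p = 0.0576). Fzd5 was at 15.0, 11.0 and 12.6 CPM in pNCC, at 25.0, 15.5 and 14.0 CPM in iCEC and at 65.2, 50.6 and 48.8 CPM in pCEC. All pCEC libraries were above all iCEC libraries, which overlapped pNCC. Fzd5 was higher in pCEC than in pNCC (log2 fold change 2.21 ± 0.165, adjusted p = 3.11e-05) and lower in iCEC than in pCEC (log2 fold change -1.69 ± 0.284, adjusted p = 0.0109), with adjusted p = 0.0507 for the second without pCEC 1.

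Fzd10, a receptor with a narrow tissue range, was at 0.187, 0.469 and 0.400 CPM in pNCC, at 7.98, 0.163 and 0.536 CPM in iCEC and at 12.4, 12.1 and 10.5 CPM in pCEC. Only iCEC 1 came near the pCEC level, and iCEC 2 and iCEC 3 were close to the pNCC range. It was 35.7-fold higher in pCEC than in pNCC (log2 fold change 5.16 ± 0.352, adjusted p = 2.11e-05). Between iCEC and pCEC the Fzd10 difference did not pass (log2 fold change -2.11 ± 1.29, adjusted p = 0.296). Fzd3, a receptor of axon guidance and planar polarity, was at 14.8, 15.5 and 13.8 CPM in pNCC, at 3.13, 0 and 2.98 CPM in iCEC and at 2.27, 2.16 and 1.72 CPM in pCEC. All pNCC libraries were above all others, and iCEC 2 had no count. Fzd3 was lower in pCEC (log2 fold change -2.71 ± 0.188, adjusted p = 2.28e-05), which was lost in a single fit of all 9 libraries (adjusted p = 0.0853), and did not pass in iCEC (adjusted p = 0.150). Fzd8 ranged from 16.6 to 61.4 CPM over all 9 libraries with overlapping groups and passed in no comparison. Fzd9 was tested in none and reached at most 1.19 CPM.

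Within the family, Fzd2 took 52.5 ± 5.04% (mean ± SD, n = 3) of the summed receptor CPM per kb in pNCC, 4.66 ± 1.01% in iCEC and 5.16 ± 1.40% in pCEC. Fzd6 took 0.923 ± 0.236%, 23.5 ± 8.12% and 58.6 ± 0.704%, and Fzd1 took 31.8 ± 4.68%, 40.1 ± 10.8% and 7.63 ± 1.18%. The pNCC libraries therefore carried mainly Fzd2 and Fzd1 transcripts, pCEC mainly Fzd6, and iCEC a mixture in which the Fzd1 share was the largest on average.

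R-spondins, the secreted amplifiers, were tested and lower in both comparisons with pNCC for all 4 genes, where 15.1% of all genes were lower in iCEC and 32.2% in pCEC. All 4 passed the filter on low counts through their pNCC libraries. A call of lower was thus nearly the only one open to them, so their number is not support for a fall of the family. In iCEC against pCEC 0 of the 4 were tested. Their summed level was 21.4, 16.3 and 6.26 CPM per kb in pNCC, at most 0.665 in iCEC and at most 0.0618 in pCEC. Rspo3 (chr10:29452416-29535867, minus strand), the highest of them per kilobase, was at 56.9, 41.2 and 12.7 CPM in pNCC, at 0.229, 0.354 and 2.05 CPM in iCEC and at 0, 0 and 0 CPM in pCEC. Each pNCC library was above each other library, pNCC 3 was the lowest of its group, and iCEC 3 was the highest outside it. Rspo3 was 45.0-fold lower in iCEC (log2 fold change -5.49 ± 1.02, adjusted p = 0.0106), with a log2 fold change of -6.90 without iCEC 3. It had 0 counts in pCEC, where it was at least 392-fold lower than in pNCC at 3 counts in each library (adjusted p = 0.000684).

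Rspo1, Rspo2 and Rspo4 were low even in pNCC, at up to 2.52, 5.60 and 2.93 CPM. Rspo1 had 0 counts in iCEC, at least 32.0-fold lower than pNCC (adjusted p = 0.00301), and was lower in pCEC (log2 fold change -5.15 ± 0.667, adjusted p = 0.000442, or -5.96 without pCEC 1 and -4.31 with pCEC 1 alone). Rspo2 was lower in iCEC (log2 fold change -6.36 ± 1.31, adjusted p = 0.0149), a call lost without pNCC 1 or pNCC 2 (adjusted p up to 0.0584) and moved to -9.64 without iCEC 1 and -5.52 without pNCC 1. With 2 counts over pCEC, its pNCC to pCEC ratio of summed counts was 138-fold (95% counting interval 37.9 to 1146), with adjusted p = 0.00171. Rspo4 was lower in iCEC (log2 fold change -4.75 ± 1.07, adjusted p = 0.0194), which was lost without iCEC 2 or any 1 pNCC library (adjusted p up to 0.0821) and came to -6.82 without iCEC 1. With 0 counts in pCEC, Rspo4 was at least 21.4-fold lower there than in pNCC (adjusted p = 0.000647). The fibroblast list was highest in the same pNCC libraries, at 25414 to 35286 CPM, and its part in the R-spondin result was not tested.

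The 3 Lgr receptors, which bind R-spondins, did not move together. Lgr4 (chr2:109917647-110014257, plus strand), the widely expressed member, was at 52.9, 35.9 and 69.7 CPM in pNCC, at 128, 246 and 255 CPM in iCEC and at 80.9, 69.6 and 48.4 CPM in pCEC. All iCEC libraries lay above all others, and pNCC and pCEC overlapped. Lgr4 was 3.95-fold higher in iCEC than in pNCC (log2 fold change 1.98 ± 0.374, adjusted p = 0.0112), with adjusted p = 0.0575 without pNCC 1. Against pCEC it was also higher (log2 fold change 1.55 ± 0.314, adjusted p = 0.0188), but this was lost without any 1 pCEC library (adjusted p up to 0.0845). Lgr5 (chr10:115450311-115587780, minus strand), a marker of many epithelial stem cells, was at 112, 55.4 and 51.0 CPM in pNCC, at 0, 0 and 17.7 CPM in iCEC and at 0.120, 0 and 0.0730 CPM in pCEC. It had no count in iCEC 1 and iCEC 2 and was at 17.7 CPM in iCEC 3, below all pNCC libraries. Lgr5 was 1011-fold lower in pCEC than in pNCC (log2 fold change -9.98 ± 0.632, adjusted p = 1.92e-05), or -10.79, -9.33 and -9.17 on the log2 scale without pCEC 1, without pCEC 2 and with pCEC 1 alone, and its iCEC difference did not pass (adjusted p = 0.224). Lgr6, a stem cell marker of skin and hair, was at 1.04, 1.72 and 52.0 CPM in iCEC and at most 1.14 CPM in any other library. The value of iCEC 3 stood apart, and no comparison of Lgr6 passed (adjusted p = 0.0998 against pNCC and 0.0546 against pCEC).

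Both receptor ubiquitin ligases were higher in pCEC. Rnf43 (chr11:87662722-87735539, plus strand) was at 0.124, 0.352 and 0.0571 CPM in pNCC, at 13.7, 13.6 and 13.9 CPM in iCEC and at 27.5, 38.5 and 32.8 CPM in pCEC. The iCEC libraries were near to each other, above all pNCC and below all pCEC libraries. Rnf43 was 76.9-fold higher in iCEC (log2 fold change 6.27 ± 0.698, adjusted p = 0.00217) and 199.7-fold higher in pCEC (log2 fold change 7.64 ± 0.458, adjusted p = 1.30e-05) than in pNCC. Without pNCC 2, which held the most Rnf43 counts of its group, these were 7.18 and 8.57 on the log2 scale. Between iCEC and pCEC the difference was smaller (log2 fold change -1.39 ± 0.224, adjusted p = 0.00968) and lost without pCEC 2 or pCEC 3 (adjusted p up to 0.0552). Znrf3 (chr11:5276324-5444847, minus strand) was at 9.17, 11.1 and 9.74 CPM in pNCC, at 11.5, 12.7 and 26.9 CPM in iCEC and at 25.9, 25.4 and 23.0 CPM in pCEC. It was higher in all pCEC than in all pNCC libraries (log2 fold change 1.44 ± 0.132, adjusted p = 8.19e-05), while in iCEC, where iCEC 3 was the highest of all 9, it did not pass (adjusted p = 0.135). Surface epithelium markers followed the same order as Rnf43, at 88.6 to 137, 14492 to 20088 and 33272 to 45935 CPM in pNCC, iCEC and pCEC, and their part in the Rnf43 and ligand results was not tested.

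**Figure D4:**
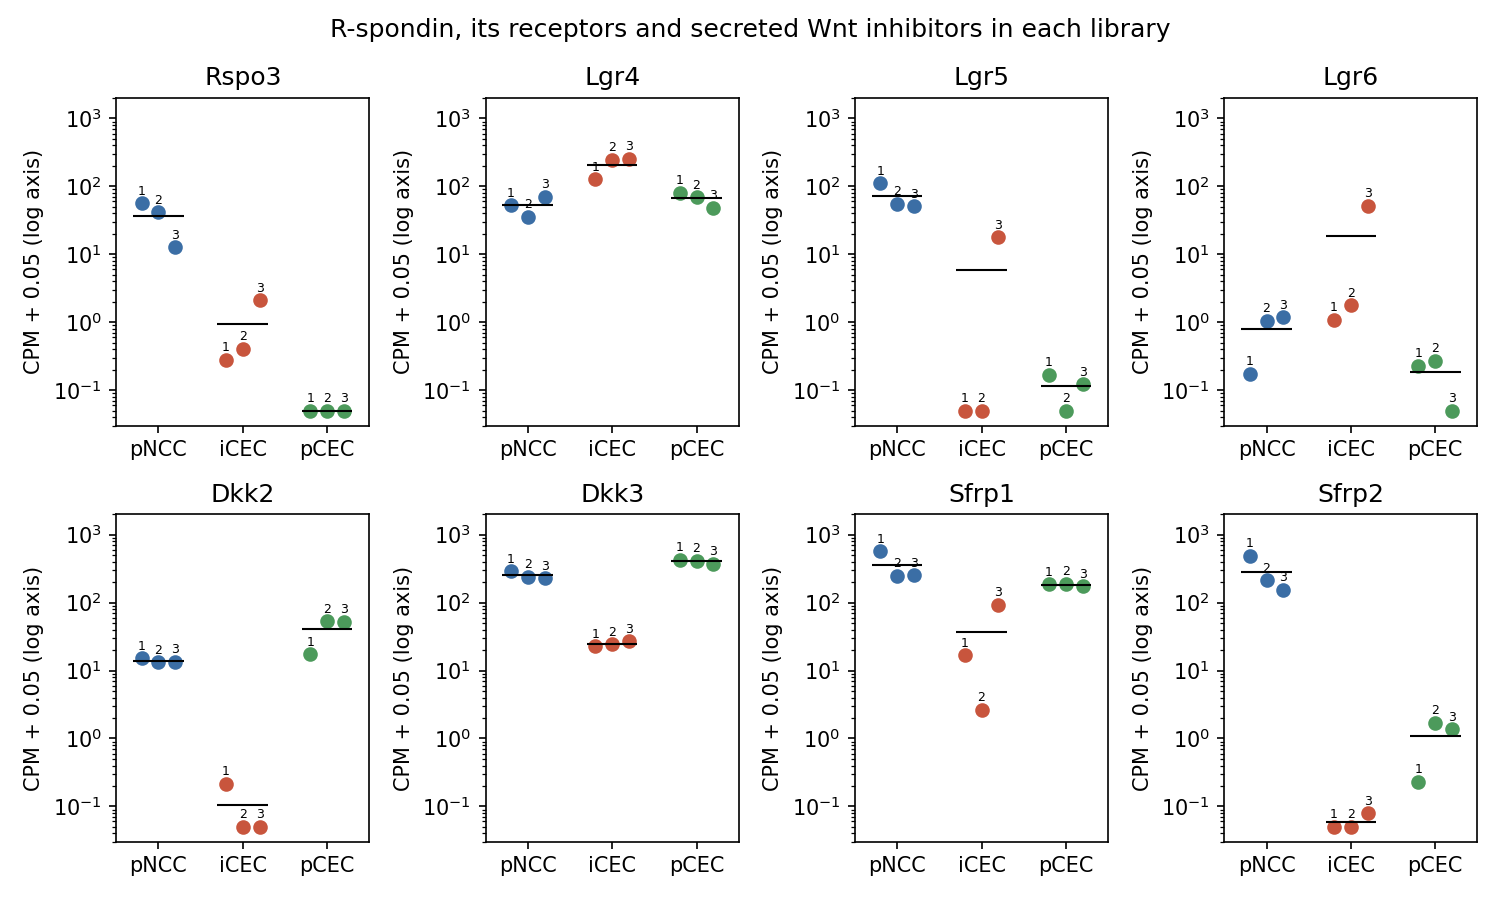
CPM + 0.05 on a log axis in each library, labelled by replicate number, with a line at the group mean, for R-spondin 3, the 3 Lgr receptors, 2 Dickkopf genes and 2 Sfrp decoys. Lgr5, Lgr6 and Sfrp1 are highest in replicate 3 within iCEC, and Dkk2 is at or near 0 in all iCEC libraries.

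The secreted Dickkopf and Sfrp genes did not move together. Dkk2 and Dkk3 were lower than pNCC in iCEC and higher than pNCC in pCEC, Sfrp2 was lower in both, and Sfrp1 passed in no comparison. Dkk2 (chr3:132085292-132180304, plus strand), an Lrp5 and Lrp6 binder made by periocular neural crest in the embryo, was at 15.2, 13.3 and 13.3 CPM in pNCC, at 0.167, 0 and 0 CPM in iCEC and at 17.5, 53.0 and 52.5 CPM in pCEC. The 3 iCEC libraries held 8 counts together, all of them in iCEC 1, and pCEC 1 was much nearer to pNCC than pCEC 2 and pCEC 3 were. Dkk2 was lower in iCEC than in pNCC (log2 fold change -7.72 ± 1.23, adjusted p = 0.00637, or -11.91 without iCEC 1) and lower than in pCEC (log2 fold change -9.40 ± 1.22, adjusted p = 0.00581, or -13.51 without iCEC 1 and -8.81 without iCEC 3). With the polyA pCEC library alone, the difference from pCEC was -8.12 (adjusted p = 0.226). It was higher in pCEC than in pNCC (log2 fold change 1.70 ± 0.421, adjusted p = 0.0104), but with no filter on low counts, in a single fit of all 9 libraries and with the polyA pCEC library alone the adjusted p was 0.0614, 0.0698 and 0.184, and the last gave a log2 fold change of 0.36. The fibroblast list was at 1035 CPM in pCEC 1 and at 9675 and 5601 CPM in pCEC 2 and pCEC 3, and its part in the Dkk2 level was not tested.

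Dkk3 (chr7:112116017-112159057, minus strand), a divergent member of the family that is widely made by mesenchymal cells, was at 288, 241 and 229 CPM in pNCC, at 22.8, 24.4 and 26.9 CPM in iCEC and at 427, 417 and 371 CPM in pCEC. Groups were ordered iCEC, pNCC, pCEC with no overlap and little spread. Dkk3 was 10.2-fold lower in iCEC than in pNCC (log2 fold change -3.35 ± 0.171, adjusted p = 0.000305) and 17.8-fold lower than in pCEC (log2 fold change -4.15 ± 0.184, adjusted p = 0.000621). It was 1.75-fold higher in pCEC than in pNCC (log2 fold change 0.81 ± 0.126, adjusted p = 0.00111), and all 3 calls held without any 1 library. With the polyA pCEC library alone, iCEC against pCEC gave -4.13 with adjusted p = 0.0823.

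Kremen1, a membrane partner of Dickkopf proteins whose gene lies 14765 bases from Znrf3 on the same strand of chromosome 11, was at 95.3, 106 and 109 CPM in pNCC, at 102, 107 and 97.0 CPM in iCEC and at 185, 217 and 206 CPM in pCEC. Levels in iCEC and pNCC overlapped (adjusted p = 0.982), and all pCEC libraries were higher. Kremen1 was 2.15-fold higher in pCEC than in pNCC (log2 fold change 1.10 ± 0.135, adjusted p = 0.000340) and lower in iCEC than in pCEC (log2 fold change -1.11 ± 0.192, adjusted p = 0.0116), the second of which was lost without pCEC 2 or pCEC 3 (adjusted p up to 0.0600). Dkk1 and Dkk4, tested in no comparison, reached at most 2.61 and 0.111 CPM in any library. Dkk1 had 0 counts in iCEC and was at 1.41, 2.61 and 0.0730 CPM in pCEC.

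Sfrp2 (chr3:83766321-83774316, plus strand), a decoy of mesenchymal cells, was at 489, 214 and 154 CPM in pNCC, at 0, 0 and 0.0298 CPM in iCEC and at 0.180, 1.66 and 1.31 CPM in pCEC. Every pNCC library was far above every other library, and pNCC 1 was the highest. Over the iCEC libraries 1 count was found, and the pNCC to iCEC ratio of summed counts was 33180.1-fold (95% counting interval 5955 to 1310590.0), with adjusted p = 0.000470. In pCEC it was 244-fold lower (log2 fold change -7.93 ± 0.847, adjusted p = 0.000208), with -7.32 and -7.34 on the log2 scale without pNCC 1 and pCEC 1. With pCEC 1, the polyA library and the lowest of its group, alone, it was -10.56 (adjusted p = 0.00289). Sfrp1, a decoy of many epithelia and of the eye, was at 574, 248 and 254 CPM in pNCC, at 16.7, 2.62 and 92.4 CPM in iCEC and at 186, 191 and 174 CPM in pCEC. Groups did not overlap between pNCC and either other group, but iCEC spread 35.3-fold between iCEC 2 and iCEC 3, and no comparison passed (adjusted p = 0.0703, 0.0593 and 0.151 for iCEC against pNCC, pCEC against pNCC and iCEC against pCEC). Sfrp4, Sfrp5 and Wif1 reached at most 1.49, 0.305 and 1.53 CPM in any library. Sfrp1, Sfrp2, Sfrp4, Sfrp5 and Wif1 together came to 359, 156 and 130 CPM per kb in pNCC, to 3.87, 0.697 and 21.3 in iCEC and to 42.8, 45.0 and 41.1 in pCEC.

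Of the genes that β-catenin signalling is known to induce, the feedback inhibitors Axin2, Notum and Nkd1 did not move as 1 block. A list of 4 other target genes had 3 tested, 2 higher and 0 lower in each comparison with pNCC. Over all genes, 16.1% were higher in iCEC and 30.3% in pCEC. Both calls of that list in iCEC, Ccnd1 and Myc, were lost without any 1 pNCC library (edgeR adjusted p up to 0.121). The Ccnd1 call was also lost with no filter on low counts (edgeR adjusted p = 0.0678). Axin2, a scaffold of the β-catenin destruction complex and a widely used target gene, was at 5.97, 5.37 and 2.91 CPM in pNCC, at 14.0, 8.07 and 15.7 CPM in iCEC and at 4.13, 10.2 and 5.95 CPM in pCEC. Its iCEC and pNCC libraries did not overlap, but pCEC overlapped both. Axin2 rose in iCEC (log2 fold change 1.39 ± 0.379, adjusted p = 0.0353), which was lost without iCEC 1 or any 1 pNCC library (adjusted p up to 0.117) and with no filter on low counts (adjusted p = 0.0543), and did not pass in pCEC (adjusted p = 0.203). Notum, a secreted enzyme that inactivates Wnt ligands, was at 0.187, 0.117 and 0.143 CPM in pNCC, at 13.7, 4.50 and 1.19 CPM in iCEC and at 0.0898, 0.693 and 0.548 CPM in pCEC. It was highest in iCEC 1 and above the pNCC level in every iCEC library. The rise of Notum in iCEC (log2 fold change 5.47 ± 1.08, adjusted p = 0.0127) was lost without any 1 pNCC library (adjusted p up to 0.0675) and was 4.31 without iCEC 1.

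Nkd1, an inhibitor that binds Dishevelled, was at 17.7, 12.9 and 8.05 CPM in pNCC, at 0.0834, 0 and 0 CPM in iCEC and at 1.32, 4.30 and 3.36 CPM in pCEC. All 9 libraries were ordered pNCC, pCEC, iCEC with no overlap. Nkd1 was lower in iCEC than in pNCC (log2 fold change -8.49 ± 1.11, adjusted p = 0.00349, or -11.79 without iCEC 1). In pCEC it was also lower than in pNCC (log2 fold change -1.95 ± 0.483, adjusted p = 0.0100), with adjusted p = 0.0683 in a single fit of all 9 libraries and a log2 fold change of -3.25 with the polyA pCEC library alone. Below pCEC, iCEC stood at a log2 fold change of -6.56 ± 1.27 (adjusted p = 0.0160), which was lost without pCEC 2 or pCEC 3 (adjusted p up to 0.0661) and came to -9.73 without iCEC 1. With the polyA pCEC library alone that difference was -5.30 (adjusted p = 0.345).

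The nuclear factors Tcf7 and Lef1, which bind DNA with β-catenin, moved in opposite directions in iCEC. Tcf7 was at 1.52, 3.75 and 2.40 CPM in pNCC, at 7.34, 8.26 and 14.7 CPM in iCEC and at 1.50, 2.77 and 1.94 CPM in pCEC. Every iCEC library was above every other library. Tcf7 was higher in iCEC than in pNCC (log2 fold change 1.95 ± 0.451, adjusted p = 0.0209), a call lost without pNCC 1 or pNCC 3 (adjusted p up to 0.0917), and higher than in pCEC (log2 fold change 2.13 ± 0.446, adjusted p = 0.0207), lost without any 1 pCEC library (adjusted p up to 0.0959) and at 2.72 with pCEC 1 alone (adjusted p = 0.303). Lef1 stayed at or below 2.64 CPM in all libraries and was at 1.09, 2.64 and 1.54 CPM in pNCC, above all iCEC and pCEC libraries. It was lower in iCEC (log2 fold change -4.97 ± 0.991, adjusted p = 0.0130), lost without pNCC 2 or pNCC 3 (adjusted p up to 0.0630) and -6.06 without iCEC 2, and lower in pCEC (log2 fold change -2.37 ± 0.490, adjusted p = 0.00431).

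Levels of the Wnt genes were spread more widely among the iCEC libraries than within the other groups, by ratios that carry no test. Of 32 Wnt genes with a mean of at least 1 CPM in iCEC, the highest library was at least 5-fold above the lowest in 13, with a median ratio of 3.92. In pNCC this held for 1 of 33 genes with a median of 1.93, and in pCEC for 2 of 31 with a median of 1.40, with values under 3 counts set to 3 counts. Over all genes with a mean of at least 1 CPM in the group, the same 5-fold ratio was reached by 17.0% in iCEC, 1.74% in pNCC and 3.14% in pCEC, with medians of 1.89, 1.26 and 1.35, so iCEC was also the most uneven group over all genes. Of the 13 Wnt genes, 8 were highest in iCEC 1 (Fzd10, Fzd3, Notum, Wnt16, Wnt3a, Wnt4, Wnt7a and Wnt9a), 4 in iCEC 3 (Lgr5, Lgr6, Sfrp1 and Wnt5b) and 1 in iCEC 2 (Wnt10b). Wnt7a, a ligand of limb and nerve development, was at 7.05, 0.163 and 0 CPM in iCEC and at most 0.628 CPM elsewhere. Rnf43 and Dkk3 kept within 22.8 to 26.9 CPM for Dkk3 and 13.6 to 13.9 CPM for Rnf43 in the same 3 libraries. No batch other than the molecule label is named in the sources used here.

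**Figure D5:**
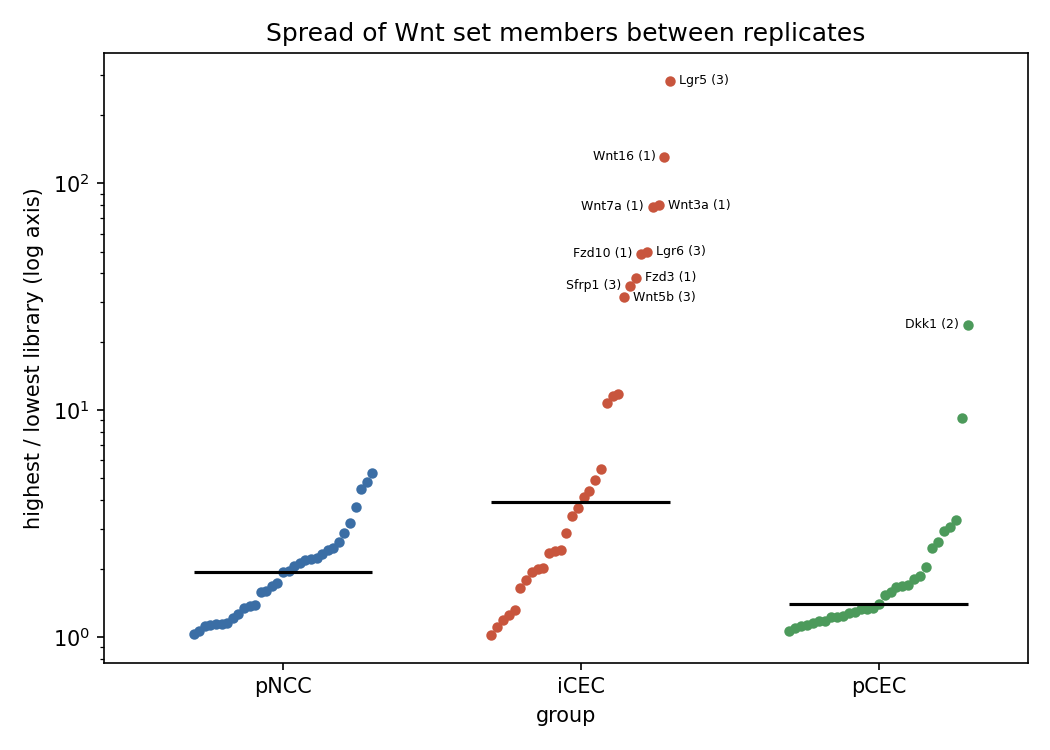
Ratio of the highest to the lowest library within each group, on a log axis, for each Wnt gene with a mean of at least 1 CPM in that group, with values below 3 counts set to 3 counts and a black line at the median. Labelled genes have a ratio of at least 20 and carry the number of their highest replicate, and the iCEC median of 3.92 lies above the medians of 1.93 in pNCC and 1.40 in pCEC.

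Some ligand genes lie side by side in mm10, and their levels are set together here. Wnt3a and Wnt9a are 16175 bases apart on opposite strands of chromosome 11, and both were highest in pCEC. Wnt10a and Wnt6, 6193 bases apart, were both highest outside pNCC, Wnt10a with overlap of iCEC and pCEC and Wnt6 without it. Wnt1 and Wnt10b are 11706 bases apart, and Wnt1 had 0 counts in all 9 libraries, as had Wnt8b. Wnt3 and Wnt9b are 24328 bases apart and reached at most 0.959 and 0.0730 CPM, and Wnt8a reached at most 0.0586 CPM. Exons of Axin2, Fzd5, Fzd6, Lef1, Notum, Rspo3, Sfrp2, Wnt11, Wnt5a and Wnt7b overlap those of a gene on the other strand, with the largest shares of 29.4% for Notum, 17.8% for Fzd5 and 16.1% for Sfrp2. Whether reads were counted by strand is not given in the sources used here, so reads of such pairs cannot be told apart, and the overlapping genes were at or under 2.02 CPM, except Gm43352 at Lef1, whose level was not analysed here.

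Other genes of the pathway were taken as a list of 64 for co-receptors, ligand release, further antagonists, the cytoplasmic core, nuclear partners, planar polarity and targets. In iCEC against pNCC, 59 were tested, with 9 higher and 11 lower (33.9%). In pCEC against pNCC, 61 were tested, with 20 higher and 20 lower (65.6%), and in iCEC against pCEC 60 were tested, with 9 higher and 7 lower (26.7%). Their shares are near the 31.3%, 62.5% and 20.4% of all genes, and their median size of change was 0.75, 1.05 and 0.78. Scaled by library totals alone, a setting chosen after seeing the data, iCEC against pCEC gave 12 higher and 6 lower. Of 8 co-receptors and other Wnt receptors, 3 were lower in iCEC and 6 in pCEC than in pNCC, and the others did not pass. Of 13 planar polarity genes, 4 were higher and 1 lower in iCEC than in pNCC, and 8 were higher and 4 lower in pCEC.

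Celsr1, an adhesion receptor of planar polarity, was at 0.684, 0.645 and 0.457 CPM in pNCC, at 95.9, 54.0 and 213 CPM in iCEC and at 161, 222 and 203 CPM in pCEC. Every iCEC and pCEC library was above 50 CPM and every pNCC library below 1 CPM. It was higher than pNCC in iCEC (log2 fold change 7.60 ± 0.567, adjusted p = 0.000703) and in pCEC (log2 fold change 8.49 ± 0.248, adjusted p = 1.04e-06). Its relative Celsr2 was higher by 5.74 and 4.87 on the log2 scale (adjusted p = 0.000866 and 1.19e-05). Ror2, a receptor for Wnt5a, was at 67.8, 59.9 and 71.8 CPM in pNCC, at 0.375, 1.42 and 3.15 CPM in iCEC and at 1.14, 4.99 and 3.32 CPM in pCEC. It was lower in iCEC (log2 fold change -5.40 ± 0.726, adjusted p = 0.00382, or -6.16 without iCEC 3) and in pCEC (log2 fold change -4.26 ± 0.500, adjusted p = 0.000323, or -5.84 with the polyA pCEC library alone), as Wnt5a and Fzd2 were.

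Nkd2, a relative of Nkd1, was at 89.8, 125 and 67.5 CPM in pNCC, at 13.8, 112 and 1649 CPM in iCEC and at 1.08, 2.05 and 1.39 CPM in pCEC. It was lower in pCEC than in pNCC (log2 fold change -5.82 ± 0.340, adjusted p = 1.29e-05, or -6.41 with the polyA pCEC library alone), and iCEC 3 was far above all other libraries. Against pCEC it was higher in iCEC (adjusted p = 0.0272), which was lost with no filter on low counts (adjusted p = 0.124) or without any 1 pCEC library (adjusted p up to 0.108). The log2 fold change of 8.38 became 5.37 without iCEC 3 and 8.996 with the polyA pCEC library alone (adjusted p = 0.422). Sostdc1, a secreted Lrp antagonist, was at 1.71, 25.4 and 354 CPM in iCEC and at most 1.05 CPM in other libraries. Its calls against pNCC and pCEC (adjusted p = 0.0320 and 0.0453) were also lost with no filter (adjusted p = 0.104 and 0.176). The first was lost without any 1 pNCC library and the second without iCEC 2 or any 1 pCEC library (adjusted p up to 0.122 and 0.154). Their log2 fold changes of 7.77 and 7.12 became 4.81 and 4.12 without iCEC 3. The co-repressors Tle1 and Tle4 moved in opposite directions in iCEC against pCEC, with log2 differences of 3.91 ± 0.388 (adjusted p = 0.00271) and -4.22 ± 1.04 (adjusted p = 0.0347), and the Tle4 call was lost with no filter (adjusted p = 0.127). The Tle4 call was lost without iCEC 2 or any 1 pCEC library (adjusted p up to 0.0965) and its log2 fold change was -6.21 without iCEC 1.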

How the data were processed

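RNA of 9 mouse samples was sequenced as paired reads of 150 bases, per the labels. The authors deposited raw counts, 1 whole number per gene symbol and library, with no normalization, and the submitters' processing notes name mm10 and edgeR. The aligner, the counting tool and the annotation are not given in the sources used here. Groups and replicate numbers were read from the sample titles, and all 53 Wnt genes were matched to GENCODE M21 for positions and exon lengths.

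The 6 libraries of a comparison were fitted by themselves with edgeR 4.0.16 in R 4.3.3, using filterByExpr, TMM scaling and the robust quasi-likelihood test, 2-sided, with no term but group. P-values were adjusted by Benjamini-Hochberg across every gene tested, and 0.05 was the threshold. SE was derived from the log2 fold change and its F statistic, so it restates the test. CPM uses the library total, with no TMM scaling. For a group with 0 counts the fold is a bound at 3 counts in each library, and for a group of 1 to 3 counts it is a ratio of summed counts with a 95% exact interval. Bounds and intervals cover counting error only. Many low counts were even numbers, such as 20, 180 and 68 for Wnt10b in iCEC. Whether both reads of a pair were counted is not given in the sources used here. If they were, the intervals are too narrow and the bounds too large.

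Levels in every library are given for the 32 genes with a mean of at least 5 CPM in 1 or more groups and a call in 1 or more comparisons. Sfrp1, Lgr6, Wnt7a and the low genes given per library were added after their values were seen. Of the other pathway genes, up to 4 called per comparison with the largest change and at least 5 CPM were named. The members, the gene lists and the tests were chosen with earlier results of these data known. Alternatives were DESeq2 1.42.0 (size factors and Wald test), no filter, 1 CPM in 3 libraries, a single fit of all 9 libraries, a block for the replicate number, leaving out each library, pCEC as its polyA library alone, and, added after seeing the data, library totals without TMM and shares without length. The fit was tested on simulated data. Tables and figures were made in Python 3.11.15 with pandas 2.3.3 and matplotlib 3.10.9.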

Additional observations from a re-analysis of the deposited data

Results flagged for a closer look

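Dkk2 and Dkk3 are listed because their differences from pNCC had opposite directions in iCEC and pCEC, and iCEC against pCEC passed for both. They were picked from these same fits and libraries, so the last comparison is not separate support. A low iCEC level alone can make it pass, so it does not show a rise in pCEC. Dkk2 was at a log2 fold change of -7.72 in iCEC and 1.70 in pCEC against pNCC, and at -9.40 in iCEC against pCEC (edgeR adjusted p = 0.00581). All 3 iCEC libraries were below all 6 others. For Dkk3 the values were -3.35, 0.81 and -4.15 (edgeR adjusted p = 0.000621), again with all 3 iCEC libraries below all others. The rise of Dkk2 in pCEC against pNCC came to a log2 fold change of 0.36 with the polyA pCEC library alone. With no filter on low counts and in a single fit of all 9 libraries it did not pass (edgeR adjusted p = 0.0614 and 0.0698). No Dixon test of single libraries was made, since each group held 3.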

How the results depend on the processing

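No called Wnt gene changed direction under any alternative run. In iCEC against pNCC the 23 calls became 15 to 27 when 1 library was left out, and 13 of the 23 genes kept their call without each library. The same range was 34 to 36 in pCEC against pNCC, where 32 of 33 kept it, and 7 to 22 in iCEC against pCEC, where 6 of 16 did (Dkk2, Dkk3, Fzd1, Fzd4, Fzd6 and Wnt2). For the other pathway genes, the 20 calls of iCEC against pNCC became 7 to 31 and the 16 of iCEC against pCEC became 3 to 24, or 9 with no filter on low counts. Over all genes, the 5093 calls of iCEC against pNCC became 2322 to 7684 and the 3327 of iCEC against pCEC became 1131 to 4974, or 5001 with the DESeq2 Wald test. With pCEC as its polyA library alone, a lone library assumed to vary like the other group, iCEC against pCEC gave 0 calls among the Wnt genes, 0 among the other pathway genes and 0 over all genes in edgeR, with 15, 11 and 2529 at an unadjusted p under 0.05. With all libraries, the DESeq2 Wald test called 22 Wnt genes there.

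Replicate numbers did not pair the libraries, since correlations of deviations between same-numbered libraries ran from -0.181 to 0.0714 and not every library was closest to its own number. With the replicate number as a block, 16, 33 and 8 Wnt genes were called in iCEC against pNCC, pCEC against pNCC and iCEC against pCEC. Calls lost under it were those of Axin2, Rspo3, Rspo4, Tcf7, Wnt2b, Wnt5b and Wnt6 in iCEC against pNCC and of Fzd6, Fzd7, Kremen1, Lgr4, Nkd1, Tcf7, Wnt10b and Wnt9a in iCEC against pCEC (adjusted p = 0.0520 for Rspo3 and 0.0518 for Fzd6). Under the same block, other pathway genes came to 10 in iCEC against pNCC and 5 in iCEC against pCEC, and all genes to 2864 and 1295. Library totals without TMM, chosen after seeing the data, moved the median of all genes by -0.13 in pCEC against pNCC and 0.13 in iCEC against pCEC, in log2. Of Wnt genes that did not pass, 6 of 17, 4 of 6 and 7 of 18 changed sign under an alternative, with a call in 0 of those fits. The causes of these shifts were not tested. Depth limits the low genes, since 3 counts were 0.0625 to 0.110 CPM.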
